A study of Homo sapiens with 4 samples.

Results

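p53 is a transcription factor that is stabilised by DNA damage and other stress and that switches on genes for cell cycle arrest, DNA repair, metabolic protection and apoptosis. MDM2 and MDM4 keep it in check, since MDM2 ubiquitinates p53 and its relative MDM4 masks the activation domain of p53. MDM2 is itself a p53 target, so the pair forms a feedback loop around p53. THP1, the cell line studied here, is a human monoblastic acute myeloid leukemia line with the MLL-AF9 fusion gene. It is known as a p53-deficient line, and the values below thus describe p53 target genes in cells that lack functional p53.

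The genes described are MDM2, MDM4, GADD45A, SESN1, SESN2, TP53I3, PHLDA3, ZMAT3 and TP53INP1. The rule takes them by name, as p53 regulators and p53 targets, with no threshold on a measured value, and every non-control probe carrying one of these 9 names was taken. This gave 14 probes of 34127 on the array, for 9 of 27193 gene names. MDM2 had 3 probes, MDM4, TP53I3 and TP53INP1 had 2 each, and each of the other genes had 1. All 14 probes matched a RefSeq transcript of the same gene by accession.

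THP1 cells were transfected once with 30 nM of a miR-511-5p mimic or of negative control #1 mimic, and RNA was taken on day 2. Such mimics are short synthetic RNA duplexes that stand in for a miRNA processed by the cell. There were 2 independent experiments, each with 1 array per treatment, so that each treatment had 2 arrays, and all 4 were Agilent single-dye arrays on 1 slide. The comparison of the treatments asks which transcripts of this line respond to miR-511, and the comparison of the experiments shows how far the same transcripts varied without regard to treatment.

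The miRNA supplied is shown here because its seed, in capitals (bases 2 to 8), is the part that pairs with target transcripts. Its gene lies on human chromosome 10, and in the RefSeq annotation of GRCh38.p14 the mature form is chr10:17845122-17845142, plus strand.
hsa-miR-511-5p: gUGUCUUUugcucugcaguca
The 7 bases complementary to this seed, AAAGACA, were searched in the printed strand of the array probes. They occurred in 0 of the 14 probes of these genes and in 331 of all 34127 probes (0.97%). The probes cover 60 bases of each transcript, and the rest of the transcripts was not searched.

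A pair of probes is printed because both read coding sequence of the zinc-binding RING domain, through which MDM2 and MDM4 pair with each other. They cover different stretches of it, and the MDM2 probe runs to the end of the coding sequence. Capitals mark the cysteine codons in the single reading frame free of earlier stop codons and, for MDM2, the stop codon that ends the probe. The MDM2 probe A_33_P3361707 lies at chr12:69233570-69233629 and the MDM4 probe A_23_P103503 at chr1:204518623-204518682, both on the plus strand of hg19.
MDM2 A_33_P3361707: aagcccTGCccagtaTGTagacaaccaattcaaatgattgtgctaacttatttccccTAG
MDM4 A_23_P103503: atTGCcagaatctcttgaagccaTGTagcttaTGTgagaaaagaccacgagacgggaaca
The MDM2 probe begins at base 1721 of NM_002392 and holds 2 cysteine codons. The MDM4 probe begins at base 1447 of NM_002393 and holds 3.

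Promoter windows of 300 bases, 250 before and 50 after a transcription start, were given by RefSeq (GRCh38.p14) for 6 of the 9 genes, in 12 windows. They were searched on both strands for the p53 response element, a pair of adjacent half-sites of 10 bases each, with up to 3 mismatches in 20 bases and no spacer. Matches stood in 3 of the 12 windows, for MDM2 and SESN1, against 5.2% of all 35116 windows. The 2 windows at the downstream MDM2 starts overlap and hold the same pair of matches, printed below because the downstream promoter of MDM2 is known for its p53 response elements. Capitals mark the 4 central bases of each half-site.
MDM2, chr12:68808923-68808942, plus strand: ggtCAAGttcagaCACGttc
MDM2, chr12:68808961-68808980, plus strand: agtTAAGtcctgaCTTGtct
SESN1, chr6:109009018-109009037, minus strand: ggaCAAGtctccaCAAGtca
The upstream MDM2 match had 2 mismatches and began 94 or 101 bases before the start, by which of the 2 starts is used. The downstream one had 3 mismatches, and so had the SESN1 match, which began 49 bases before the start of one of its 3 windows. At most 2 mismatches were found in 0.649% of all windows. The windows of MDM4, SESN2, TP53I3 and ZMAT3 held no match at this setting, which says only that these letters were not in these windows. A match is a description of the sequence, and binding was not measured.

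All 14 probes were marked well above background by the scanner software on all 4 arrays. Detection did not depend on the treatment or on the experiment for any of them. On the array as a whole, between 64.8% and 69.3% of probes were well above background, the lowest on the miR-511 array and the highest on the control array of experiment 1. No non-control spot was saturated. The local background next to the spots of the 14 probes lay between 19 and 30 intensity units. The TP53INP1 probe A_33_P3421163 had the lowest mean log2 signal of the 14 probes, at 5.10 over the 4 arrays. Its processed signals were 31.2 and 34.8 with miR-511 mimic and 49.2 and 25.6 with control mimic in experiments 1 and 2. A fitted surface is already subtracted from these. Before that subtraction its spot means were 71.8 and 76.5 with miR-511 mimic and 89.1 and 67.9 with control mimic. Of the markers of the labelled cell type, CD33, MPO, CSF1R, SPI1 and AZU1 were well above background on all 4 arrays, and LYZ had no probe under that name. Markers of other cell types were partly detected too: CD3D, HBB and KRT8 on all 4 arrays, CD3E on 3, and MS4A1, EPCAM, COL1A1 and COL1A2 on none. All 4 samples were bulk RNA of the THP1 line, and the cause of these marker signals was not tested.

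None of the 9 genes passed limma's test between miR-511 mimic and control mimic. Of the 14 probes, 0 passed limma's unadjusted p below 0.05, the threshold of the study's methods, and the smallest p among them was 0.136, for SESN2. Over all tested probes that threshold called 2.2% (498 of 22638), 1.27% as higher and 0.932% as lower, and a count of 0 among 14 probes is close to that background. After Benjamini-Hochberg adjustment over all tested probes, limma called 0 probes in the whole comparison, with a smallest adjusted p of 0.790 and one of 1.00 for each of the 14 probes. Differences of the 14 probes ran from -0.20 to 0.18 on the log2 scale, with a median of -0.01 against 0.01 over all tested probes. With 2 arrays against 2, an exact permutation test cannot give a two-sided p below 0.333.

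The values say more about how large a change could have been missed. The 95% limma intervals of the 14 probes together reached from a 0.518-fold to a 1.73-fold level with miR-511 mimic relative to control mimic. The narrowest, that of SESN2, spanned 0.53 log2 units, from 0.942-fold to 1.36-fold. A 2-fold difference in either direction lay outside the interval of every probe. The number of arrays limits the precision.

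**Figure D1:**
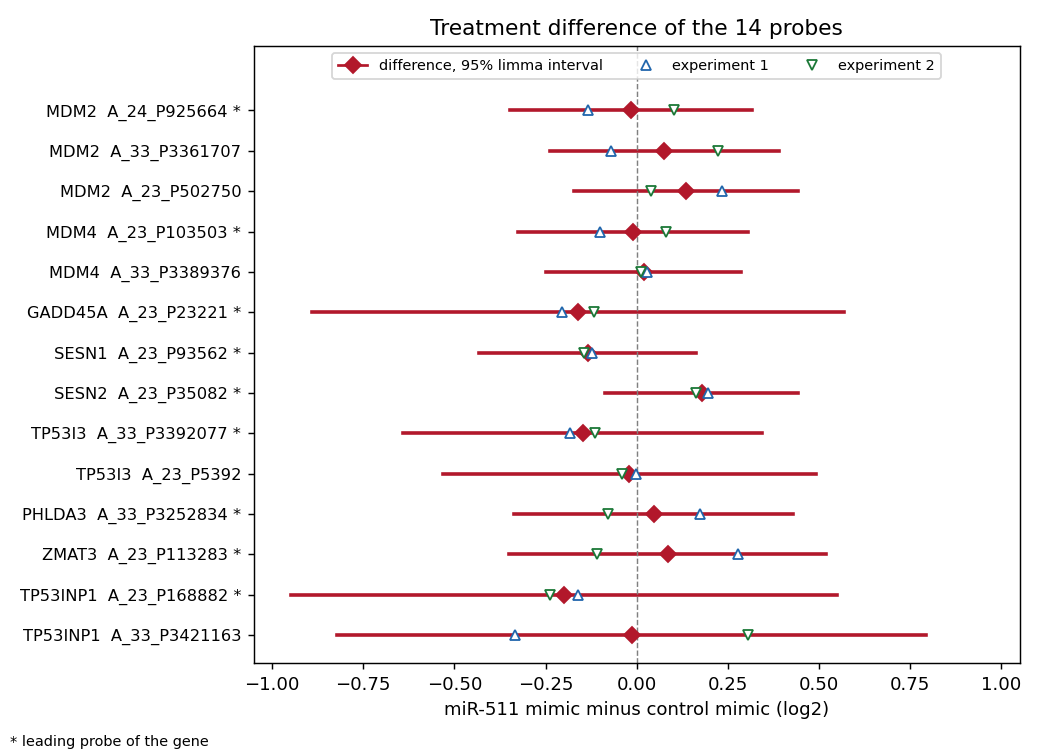
Treatment difference (miR-511 mimic minus control mimic, log2 units) of each of the 14 probes. Filled diamonds and bars are the difference and its 95% limma interval from 4 arrays, open triangles are the difference within experiment 1 (up) and experiment 2 (down), and an asterisk marks the probe with the highest mean of its gene. Every interval spans 0, and in 6 of 14 probes the triangles lie on opposite sides of 0.

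Neither regulator of p53 passed the test on any of its 5 probes. For MDM2, the E3 ligase, the probe with the highest mean was A_24_P925664 (chr12:69238891-69238950, hg19). Its normalized log2 signal was 9.44 and 9.44 with miR-511 mimic in experiments 1 and 2, and 9.58 and 9.34 with control mimic. The miR-511 values lay between the control values, the control being the higher array in experiment 1 and the lower in experiment 2. The difference was -0.02 ± 0.12 (limma SE, n = 2 arrays each), with a 95% interval of -0.35 to 0.32.

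The other MDM2 probes had differences above 0, and neither passed. The RING probe printed above, A_33_P3361707, read 9.20 and 9.32 with miR-511 mimic and 9.27 and 9.10 with control mimic, a log2 difference of 0.08 ± 0.11. The third probe, A_23_P502750 (chr12:69233822-69233881), was printed 10 times on each array. It read 7.19 and 6.99 with miR-511 mimic and 6.95 and 6.95 with control mimic. Here the groups did not overlap, and the log2 difference was 0.14 ± 0.11 with a 95% interval of -0.17 to 0.44. It was 0.06 when spots marked as outliers were kept, of which this probe had 1.

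MDM4 binds p53 but has little ubiquitin ligase activity of its own. Its RING probe, A_23_P103503, was also the one with the highest mean. Its log2 signal was 10.10 and 10.08 with miR-511 mimic and 10.20 and 9.99 with control mimic. The groups overlapped, and the difference was -0.01 ± 0.11 with a 95% interval of -0.32 to 0.30. Probe A_33_P3389376 (chr1:204499870-204499929), from nearer the start of the transcript at base 373, read 9.56 and 9.46 with miR-511 mimic and 9.53 and 9.45 with control mimic. Its 4 values lay within 0.10 log2 units of each other, the narrowest range among the 14 probes.

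**Figure D2:**
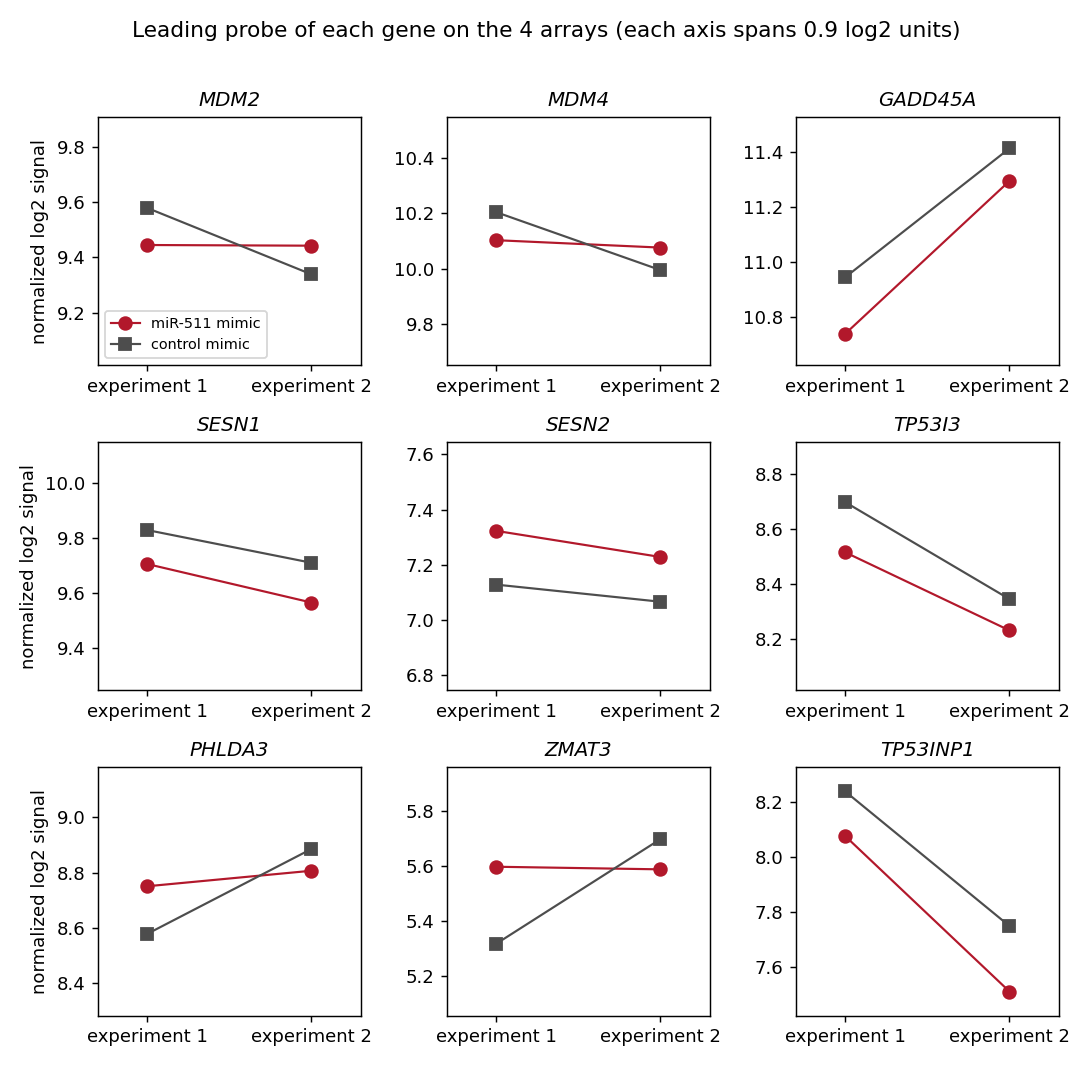
Normalized log2 signal (y axis, 0.9 log2 units in each panel) in experiments 1 and 2 (x axis) of the leading probe of each gene. Red circles are miR-511 mimic arrays and grey squares control mimic arrays, 1 array per point, joined by treatment. For GADD45A, TP53I3 and TP53INP1 the step from experiment 1 to experiment 2 is larger than the gap between the treatments, whereas for SESN1 and SESN2 both miR-511 points lie on one side of both control points.

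GADD45A, a stress sensor that binds PCNA and takes part in growth arrest and DNA repair, was measured by 1 probe, A_23_P23221 (chr1:68153371-68153430). Its processed signals were 1511 and 2739 with miR-511 mimic in experiments 1 and 2, and 2054 and 2762 with control mimic. After normalization the log2 values were 10.74 and 11.29 against 10.94 and 11.41. The miR-511 array was the lower of the pair in both experiments, with differences of -0.20 and -0.12, yet the groups overlapped because both arrays of experiment 2 were above both of experiment 1. The difference between treatments was -0.16 ± 0.27, with a 95% interval of -0.89 to 0.57.

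The sestrins, which restrain mTORC1 and protect against oxidative stress, moved in opposite directions by amounts that did not pass the test. SESN1 (A_23_P93562, chr6:109308477-109308536, minus strand) read 9.71 and 9.57 with miR-511 mimic and 9.83 and 9.71 with control mimic. The groups did not overlap, the miR-511 values being lower in both experiments, and the difference was -0.13 ± 0.11 with a 95% interval of -0.43 to 0.16. SESN2 (A_23_P35082, chr1:28608194-28608253) read 7.32 and 7.23 with miR-511 mimic and 7.13 and 7.07 with control mimic. Its groups did not overlap either, with higher values under miR-511 mimic in both experiments, and the difference was 0.18 ± 0.10 with a 95% interval of -0.09 to 0.44. SESN1, SESN2 and the third MDM2 probe were the 3 of 14 probes whose treatment groups did not overlap, and over all tested probes the share was 25.7%. For SESN2, 20.9% of all tested probes had a difference of larger size.

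TP53I3, also known as PIG3, is a quinone oxidoreductase linked to oxidative stress and apoptosis. Its leading probe, A_33_P3392077 (chr2:24300504-24300563, minus strand), read 8.52 and 8.23 with miR-511 mimic and 8.70 and 8.35 with control mimic. The difference was -0.15 ± 0.18, and the groups overlapped. The other probe, A_23_P5392, lies upstream in the transcript and its ends are 1742 bases apart in the genome (chr2:24300615-24302356), so that it bridges a splice junction. It read 7.48 and 7.12 with miR-511 mimic and 7.48 and 7.16 with control mimic, and the difference was -0.02 ± 0.19. Within each experiment the 2 treatments were thus closer together on this probe than the experiments were to each other.

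PHLDA3, which competes with AKT for membrane lipids and so dampens AKT signalling, read 8.75 and 8.81 with miR-511 mimic and 8.58 and 8.89 with control mimic (A_33_P3252834, chr1:201435106-201435165, minus strand). The miR-511 values lay between the control values, and the difference was 0.05 ± 0.14. ZMAT3, an RNA-binding zinc finger protein that acts on the splicing and stability of transcripts had processed signals of 42.3 and 52.0 with miR-511 mimic and of 43.4 and 51.1 with control mimic (A_23_P113283, chr3:178742161-178742220, minus strand). Its log2 values were 5.60 and 5.59 against 5.32 and 5.70. Here too the miR-511 values lay within the control range, and the difference was 0.08 ± 0.16 with a 95% interval of -0.35 to 0.52.

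TP53INP1, which promotes p53 phosphorylation and autophagy, had the widest intervals. Its leading probe, A_23_P168882 (chromosome 8, minus strand), read 8.08 and 7.51 with miR-511 mimic and 8.24 and 7.75 with control mimic. The miR-511 array was lower in both experiments, the groups overlapped, and the difference was -0.20 ± 0.27 with a 95% interval of -0.95 to 0.55. The second probe, A_33_P3421163, read 5.17 and 5.01 with miR-511 mimic and 5.50 and 4.71 with control mimic. Its 2 experiments disagreed in sign, with differences of -0.33 and 0.31.

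Signals before normalization gave another picture in experiment 1. All 14 probes had a lower processed signal on the miR-511 array than on the control array, as had 92.1% of all tested probes. After quantile normalization 9 of the 14 were lower, against 42.2% of all tested probes. In experiment 2, 3 of the 14 were lower on the miR-511 array before normalization, against 22.9%, and 7 after it, against 50.2%. Of the 14 probes, 8 had the same sign of the treatment difference in both experiments, against 51% of all tested probes.

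Of the 14 probes, 3 were printed 10 times on each array, one each for MDM2, MDM4 and ZMAT3, which gave the spread between spots of 1 array. The MDM2 probe A_23_P502750 had a mean log2 of 7.19 ± 0.11 (SD over 9 spots) on the miR-511 array of experiment 1, where 1 further spot with a signal of 48.5 was marked an outlier and left out. Its other 3 array means lay between 6.95 and 6.99. The MDM4 probe had spot SDs between 0.04 and 0.13 with array means from 9.99 to 10.20. For ZMAT3 the spot SDs were 0.09 to 0.13, and the mean of the control arrays moved from 5.32 in experiment 1 to 5.70 in experiment 2 while the miR-511 means were 5.60 and 5.59. Spots of 1 array share its RNA and are not replicates, so they give the measuring error within an array only.

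**Figure D3:**
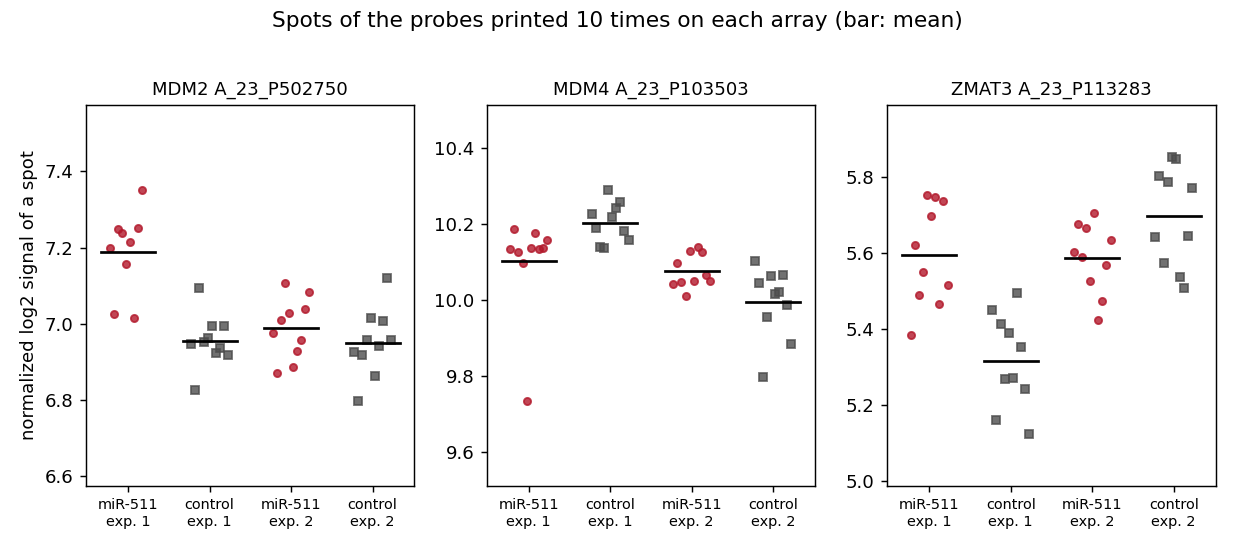
Normalized log2 signal of single spots (y axis) on the 4 arrays (x axis) for the probes printed 10 times, each panel spanning 1 log2 unit. Red circles are miR-511 mimic spots, grey squares control mimic spots and black bars the array means. The ZMAT3 control means of 5.32 and 5.70 lie on either side of both miR-511 means.

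Between the 2 experiments, probes of GADD45A, TP53I3 and TP53INP1 passed limma's unadjusted threshold, and none passed after adjustment. This comparison is also 2 arrays against 2, so the permutation limit of 0.333 holds here too. GADD45A rose by 0.51 ± 0.11 log2 units from experiment 1 to experiment 2 (limma SE, n = 2 arrays each), with a 95% interval of 0.21 to 0.81 and a limma p of 0.00882 before and 0.237 after adjustment over all tested probes. TP53INP1 fell by 0.53 on its leading probe (limma SE 0.12), with a limma p of 0.0124 before and 0.261 after adjustment. TP53I3 fell on both probes, by 0.32 on A_33_P3392077 (SE 0.10) and by 0.34 on A_23_P5392 (SE 0.07). The limma p of these was 0.0346 and 0.00768 before adjustment, and 0.326 and 0.232 after it. In each of these, both arrays of one experiment lay above both arrays of the other. The step was present under either treatment. For GADD45A it was 0.55 within miR-511 mimic and 0.47 within control mimic, and for TP53INP1 it was -0.56 and -0.49.

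These 4 calls among 14 probes stand against 14.1% of all tested probes (3191 of 22596), 5.66% called higher in experiment 2 and 8.46% lower. None of the 22596 probes passed limma's test after adjustment, the smallest adjusted p being 0.0632. The experiments did not overlap for 9 of the 14 probes, against 49.4% of all tested probes. In 12 of 14 probes the step had the same sign under both treatments, against 62.9% of all tested probes, and for 10 of 14 its size exceeded that of the treatment difference, against 62.4%. Leaving out the control array of experiment 2 ended the GADD45A call (difference 0.45, with an unadjusted limma p of 0.0504). Without the control array of experiment 1 the differences of TP53INP1 and of the leading TP53I3 probe were -0.44 and -0.23 and no longer passed. The TP53I3 call on that probe was also lost without either array of experiment 2, at -0.26 without the miR-511 array and -0.37 without the control array, whereas the junction probe A_23_P5392 passed whichever array was left out. By the methods' t-test on the same values, 3 of the 14 probes passed: those of GADD45A, the TP53I3 junction probe and MDM4 A_33_P3389376, at -0.08.

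The remaining probes did not pass limma's threshold between the experiments. The second TP53INP1 probe fell short of the threshold at -0.48 ± 0.17 with an unadjusted limma p of 0.0524. It passed when detection on all 4 arrays was required, with a limma p of 0.0461, and without either miR-511 array. The step was -0.12 ± 0.09 for MDM2, -0.12 ± 0.08 for MDM4, -0.13 ± 0.09 for SESN1 and -0.08 ± 0.11 for SESN2 on the leading probes. For PHLDA3 and ZMAT3 it was 0.18 ± 0.09 and 0.18 ± 0.12, and in both the control arrays differed more (0.31 and 0.38) than the miR-511 arrays (0.06 and -0.01).

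**Figure D4:**
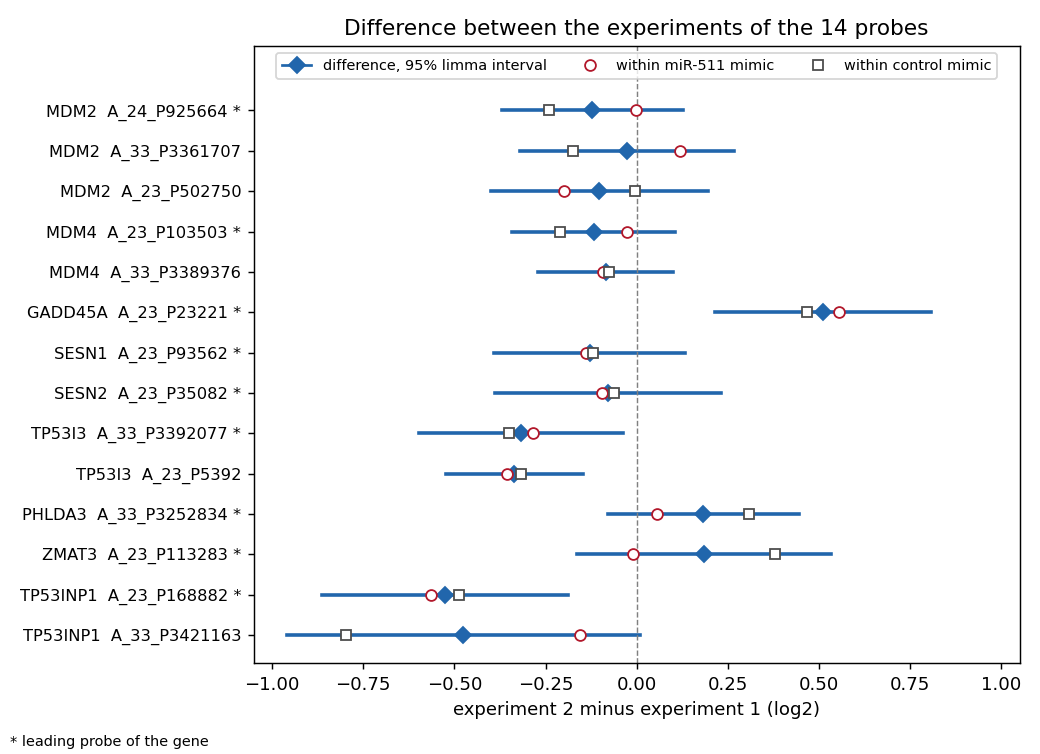
Experiment 2 minus experiment 1 for each of the 14 probes, in log2 units. Filled diamonds and bars are the difference and its 95% limma interval from 4 arrays, open circles the step within miR-511 mimic and open squares the step within control mimic. The interval lies above 0 for GADD45A, and below 0 for both TP53I3 probes and the leading TP53INP1 probe.

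Other genes of the p53 pathway were read from lists of the p53 family, further p53 targets, paralogs of the 9 genes and p53 regulators. Of the 50 genes listed, 50 were on the array and 46 were tested, and 0 of them passed limma's unadjusted threshold between the treatments in either direction. Their median log2 difference was 0.01, as over all tested probes. By list, the medians were 0.00 for cell cycle targets, 0.02 for apoptosis targets, 0.03 for repair and metabolism targets, -0.08 for the paralogs and 0.02 for the regulators. On the probe with the highest mean of each gene, the lowest difference was that of BBC3, the pro-apoptotic protein PUMA, at -0.25 ± 0.27. Next came SFN, the arrest protein 14-3-3 sigma, at -0.23 ± 0.12. The processed signals of SFN were low, at 21.1 and 30.8 with miR-511 mimic and 32.5 and 31.4 with control mimic. The highest differences were those of CDKN2A, one of whose products, ARF, inhibits MDM2, at 0.17 ± 0.15, and of the kinase gene PLK2, at 0.16 ± 0.17. For CDKN2A the difference was -0.006 within experiment 1 and 0.34 within experiment 2. Its second probe, A_33_P3411628, was well above background on 1 of 4 arrays. BBC3 read 8.85 and 8.56 with miR-511 mimic and 8.62 and 9.30 with control mimic, so that the experiments disagreed in sign. Other probes of listed genes ranged further without passing, to -0.67 ± 0.31 for FAS A_33_P3332112, well above background on 3 of 4 arrays, and to 0.76 ± 0.65 for GADD45G A_24_P120934. Leaving out 1 array brought 1 listed gene past the threshold in 3 of 4 cases, a different gene each time: TP53BP1 (-0.59) without the miR-511 array of experiment 1, BBC3 (-0.59) without the control array of experiment 1 and PPM1D (0.66) without the control array of experiment 2.

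Between the experiments, 9 of the 46 tested genes passed the unadjusted threshold, 5 higher and 4 lower in experiment 2, against 14.1% of all tested probes (5.66% higher and 8.46% lower). Of the 5 tested paralogs, 4 were among them, and they are named after their values were seen. GADD45G, a relative of GADD45A, was 0.39 ± 0.08 higher in experiment 2 on its leading probe. Its other probe, A_24_P120934, rose by 1.30 ± 0.40, with a limma p of 0.0316 before and 0.319 after adjustment. The other relative of GADD45A, GADD45B, fell by 0.42 (limma SE 0.09). PHLDA2, a paralog of PHLDA3, fell by 0.47 (SE 0.07), and TP53INP2, a paralog of TP53INP1 that acts in autophagy, fell by 0.35 (SE 0.10). The apoptosis target PMAIP1, which encodes NOXA, was 0.53 ± 0.11 higher. The others were PPM1D, CCNG1 and USP7, which were higher, and HIPK2, which was lower. The second PPM1D probe went the other way without passing, at -0.23 against 0.65 for the leading probe. None of the 9 passed after adjustment over all tested probes, the lowest adjusted limma p being 0.204.

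**Figure D5:**
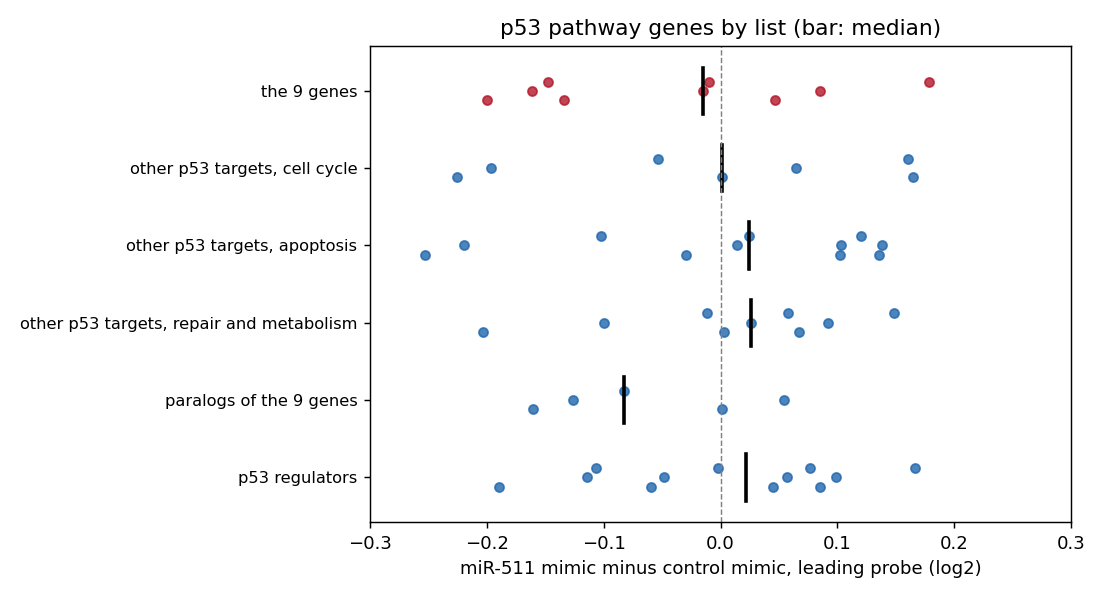
Treatment difference (miR-511 mimic minus control mimic, x axis, log2) of the probe with the highest mean of each tested gene, for the 9 genes (red) and 5 lists of other p53 pathway genes (blue). Black bars are list medians, and points are set apart vertically only for legibility. The values lie between -0.25 and 0.18, and every list shown has values on both sides of 0.

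Among the listed genes, those whose 4 array values lay nearest to the pattern of the leading MDM2 probe, each set of values centred on its own mean, were C12orf5 (now TIGAR), CREBBP and APAF1. Their root mean square distances from MDM2 were 0.04, 0.07 and 0.08 log2 units over 4 arrays, which is a description of these arrays only.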

How the data were processed

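Total RNA of THP1 cells was measured on 4 single-dye arrays, 2 miR-511 mimic and 2 control mimic, grouped by the sample titles. Per the file headers, the authors' scanner files came from Feature Extraction 10.7.3.1, whereas the submitters' processing notes give 10.5.1.1. The deposited processed intensity of a spot had a fitted spatial surface subtracted, not its local background, was detrended within the array, and was not normalized between arrays. A further deposited table, of log2 values after quantile normalization over all features, was used as an alternative. Flags deposited with each spot (well above background, outlier, saturated) are coded 0 or 1. Coordinates are those of hg19 in the files. RefSeq (GRCh38.p14) gave names, promoter windows and the miRNA sequence.

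With R 4.3.3 and limma 3.58.1, log2 of the processed intensity of 43118 non-control spots, less 232 to 301 outlier spots per array, was quantile normalized and averaged per probe. A probe was tested if 1 group at least had it well above background on both its arrays; one printed 10 times needed over 50% of its spots. limma's lmFit and eBayes, with no further term, compared treatments and, separately, experiments (two-sided unadjusted p below 0.05, as in the methods, and Benjamini-Hochberg). Intervals and SE are limma's. The functions were tested on simulated data. The experiment number in the titles pairs the arrays, since each experiment was independent, and arrays of one experiment deviated together (correlation 0.271 across tested probes).

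All probes of the 9 genes are named, the tested probe with the highest mean leading. From the p53 lists, genes past the threshold between treatments, and the 2 highest and 2 lowest differences are named, with the 3 genes nearest the MDM2 pattern. Some listed genes and markers are not reported here. The rule uses gene names only, but the genes and lists were chosen with earlier results of these data known. Alternatives were scaling to the 75th percentile, the deposited table, normexp (offset 50), outlier spots kept, no filter or detection on all 4 arrays, detection above the negative control spots, the experiment as a replicate block or the treatment as a term, an intensity trend in eBayes, a plain comparison per averaged probe, called the methods' t-test here (two-sided, equal variance; the study applied its own over identical replicate probes, which was not run) and leaving out each array. Precision is limited by 2 arrays per treatment.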

Additional observations from a re-analysis of the deposited data

How the results depend on the processing

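None of the 14 probes passed between the treatments under any alternative run, the replicate block, the methods' t-test and leaving out each array included. With the experiment number as a replicate block, paired by experiment, 0 of the 14 probes and 0 of the 46 listed genes passed, while 894 of all tested probes did, against 498 without it. The count over all tested probes was 265 with normexp, 285 with an intensity trend and 1029 without a filter on dim probes, and it ranged from 516 to 1379 when 1 array was left out. For the p53 pathway lists, leaving out 1 array gave 0 to 1 genes.

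Between the experiments, leaving out 1 array gave 2 to 5 of the 14 probes and 1899 to 3381 of all tested probes. The step of SESN1 turned to 0.0070 with normexp, and that of SESN2 ranged from -0.18 to 0.019 when 1 array was left out. With 1 array of a group left, limma takes its spread from the other group.

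Treatment differences of single genes kept their sign under every alternative that used all 4 arrays. They changed sign when 1 array was left out for 7 of the 9 genes: MDM2 ranged from -0.14 to 0.10, MDM4 from -0.12 to 0.095, GADD45A from -0.44 to 0.12, TP53I3 from -0.32 to 0.028, PHLDA3 from -0.11 to 0.20, ZMAT3 from -0.10 to 0.27 and TP53INP1 from -0.48 to 0.082. SESN1 and SESN2 kept their sign. The cause of these changes was not tested. All 14 probes were also above the negative control spots on all 4 arrays.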
